A study of Mus musculus with 6 samples.

Results

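The 39 Hox genes of the mouse were chosen as every protein-coding gene of the count table whose symbol is Hox, a cluster letter from a to d and a number. They were 39 of 45703 genes in the table and 39 of its 21843 protein-coding genes. Hox genes encode homeodomain transcription factors that give cells their position along the head-to-tail axis. They lie in 4 clusters, and genes with the same number in different clusters, called paralogues, descend from the same ancestral gene. In the embryo the low-numbered genes of a cluster are switched on first and reach furthest towards the head, the middle numbers belong mainly to neck and trunk, and the high numbers to lumbar, sacral and tail levels and, for HoxA and HoxD, to the limb buds and external genitalia. Many adult cells, fibroblasts and sensory neurons among them, keep a Hox pattern that reflects the level of the body they came from.

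Primary cultures of dorsal root ganglia, which house the sensory neurons of trunk and limbs, were profiled in 6 replicates. The donors were adult C57BL/6 mice of 4 to 6 weeks and of wild-type genotype; the enzyme-dissociated cells grew on a poly-L-lysine coating for 7 days, in serum (10%) and 10 ng/ml EGF and FGF, before RNA from 2 dishes was joined into each sample. All 6 samples form 1 group, so the results are levels and the spread between replicates. The labels call the samples biological replicates but do not give the number of mice behind each one, nor the spinal level of the ganglia, and a culture of this kind mixes neurons, glia and connective tissue cells.

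The 6 libraries held 20070639 to 22968642 counts each. CPM is the count of a gene scaled to the total of its library, and a level is CPM per kb of the gene's combined exon length, so that genes of different length can be set beside each other. A floor of 3 counts corresponds to 0.131 to 0.149 CPM, depending on the library, and covers counting error only. Among the markers fixed for each cell type, 9 of 10 sensory neuron genes, 8 of 8 Schwann and satellite glia genes, 7 of 7 fibroblast genes, 5 of 6 mural genes, 2 of 6 endothelial genes and 4 of 6 macrophage genes reached 1 CPM in every library, and every marker had counts in at least 1 library. The endothelial marker Cldn5 was at 0 in replicates 2, 3 and 6. The libraries therefore held RNA of several cell types, and fewer cells of a type and less RNA per cell cannot be told apart in them.

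Of the 39 Hox genes, 23 were detected, which here means a CPM of at least 1 in all 6 libraries. The share among all protein-coding genes was 55.8%. Another 12 had counts but fell short of 1 CPM in at least 1 library, and Hoxa13, Hoxb1, Hoxd12 and Hoxd13 had no count in any library. Detection followed the paralogue number: 4 of 8 genes numbered 1 to 3, 14 of 15 genes numbered 4 to 8, and 5 of 16 genes numbered 9 to 13 were detected. No gene numbered 11, 12 or 13 was among the detected genes. By cluster, the count was 8 of 11 in HoxA (chr6:52155367-52260880, minus strand, GRCm38.p6), 8 of 10 in HoxB (chr11:96194316-96368254, plus strand), 5 of 9 in HoxC (chr15:102921131-103036856, plus strand) and 2 of 9 in HoxD (chr2:74668225-74765142, plus strand).

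**Figure D1:**
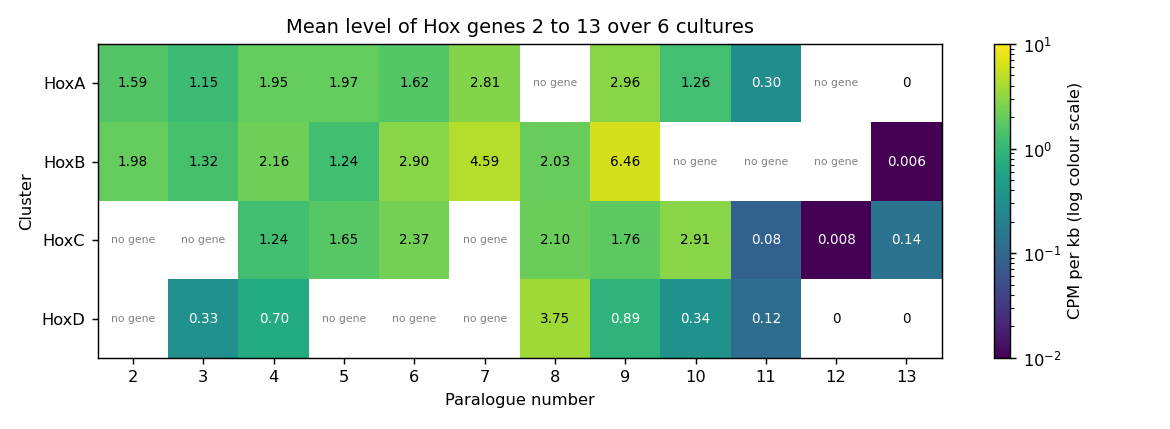
Mean level of the Hox genes numbered 2 to 13 over the 6 cultures in CPM per kb, with clusters as lines of the grid and paralogue numbers along the horizontal axis; colour is on a log scale and each cell prints its value. The highest values, 6.46 for Hoxb9 and 4.59 for Hoxb7, lie in HoxB, and the cells from paralogue 11 onward are at 0.30 or below.

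The Hox genes were transcripts of modest abundance. The highest mean level was 6.46 CPM per kb (Hoxb9) and the lowest among the detected genes 0.699 CPM per kb (Hoxd4), against a median of 8.55 CPM per kb over all detected protein-coding genes. After Hoxb9 came Hoxb7 at 4.59, Hoxd8 at 3.75, Hoxa9 at 2.96, Hoxc10 at 2.91, Hoxb6 at 2.90, Hoxa7 at 2.81 and Hoxc6 at 2.37 CPM per kb. The order is not sharp. For all 22 pairs of neighbours in the order of the 23 detected genes the ranges over libraries overlapped, and only the pair of Hoxb5 above Hoxa3 kept its order in all 6 libraries. Before division by length Hoxc6, whose combined exons span 10979 bases, was the most counted member, at 26.0 ± 4.54 CPM (SD, n = 6).

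The genes numbered 1 to 3 pattern the hindbrain and the upper neck, and they made up 12.3% ± 1.69 of the summed Hox level (SD, n = 6), or 19.3% when CPM was not divided by length. Hoxb1, which defines a segment of the hindbrain, was at 0 in every library. Hoxd1, known from pain-sensing neurons, had 1, 2, 12, 8, 9 and 6 counts in replicates 1 to 6, lowest in replicate 1. Hoxa2, which gives the second pharyngeal arch its identity, was steady at 2.82 ± 0.31 CPM (SD, n = 6), and its spread was within counting noise (chi-square test over the 6 libraries, Benjamini-Hochberg adjusted p = 0.620). Hoxb2 had 3.62 ± 1.37 CPM, but none of its 6 counts was a whole number, and its level is uncertain for that reason. Hoxa3 and Hoxb3 had levels of 1.15 and 1.32 CPM per kb.

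Spans of genes matter for these values. Hoxa3, with a span that contains Hoxa4, Hoxa5 and Hoxa6, and Hoxb3, with one that overlaps Hoxb4, are among 10 members whose annotated span overlaps another Hox gene on the same strand, and 15 members overlap a gene on the opposite strand. The libraries were made with a strand-marking kit, but the strand setting of the counting is not given in the sources used here. Levels of overlapping genes are uncertain to that extent. Counts that were not whole occurred in 19 of the 39 members.

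The genes numbered 4 to 8, which pattern neck and thorax, made up most of the Hox signal, 58.7% ± 4.37 of the summed level (SD, n = 6). All paralogues numbered 4 to 7 were detected, 12 genes from Hoxa4 to Hoxb7 and including Hoxd4, and of the 3 genes numbered 8, Hoxb8, Hoxc8 and Hoxd8, only Hoxc8 missed the threshold, through 0.740 CPM in replicate 1. Hoxb7 was the second highest gene of the family and one of its steadiest. Its CPM was 10.3, 10.8, 10.2, 9.72, 8.50 and 9.61 in replicates 1 to 6. Hoxa7, its paralogue, had 5.01, 5.46, 5.68, 4.98, 5.64 and 6.17 CPM. Neither varied beyond counting noise (chi-square test, adjusted p = 0.167 for Hoxb7 and 0.591 for Hoxa7), and Hoxb7 was above Hoxa7 in level in all 6 libraries. The same held for Hoxa4, at 2.99 ± 0.44 CPM, and Hoxb4, at 5.53 ± 0.64 CPM, genes of the neck (adjusted p = 0.281 and 0.234).

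The genes numbered 9 to 13, which pattern the lower trunk, loins, pelvis and tail, made up 29.0% ± 5.03 of the summed level (SD, n = 6), nearly all of it from numbers 9 and 10. Summed over clusters, paralogue 9 had the highest level of any number, 12.1 ± 5.68 CPM per kb, and paralogue 10 had 4.52 ± 2.23. Paralogue 11, the sacral number, had 0.498 ± 0.557, and paralogues 12 and 13 had 0.00754 and 0.144 CPM per kb. Hoxc10, a gene of lumbar levels, was first of its number in all 6 libraries and took 64.4% of that sum. At number 13, the tail and digit genes Hoxa13 and Hoxd13 had no count, Hoxb13 had a single count in 1 library, and Hoxc13, also known from hair and nail, had 6, 0, 13, 5, 9 and 10 counts in replicates 1 to 6.

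**Figure D2:**
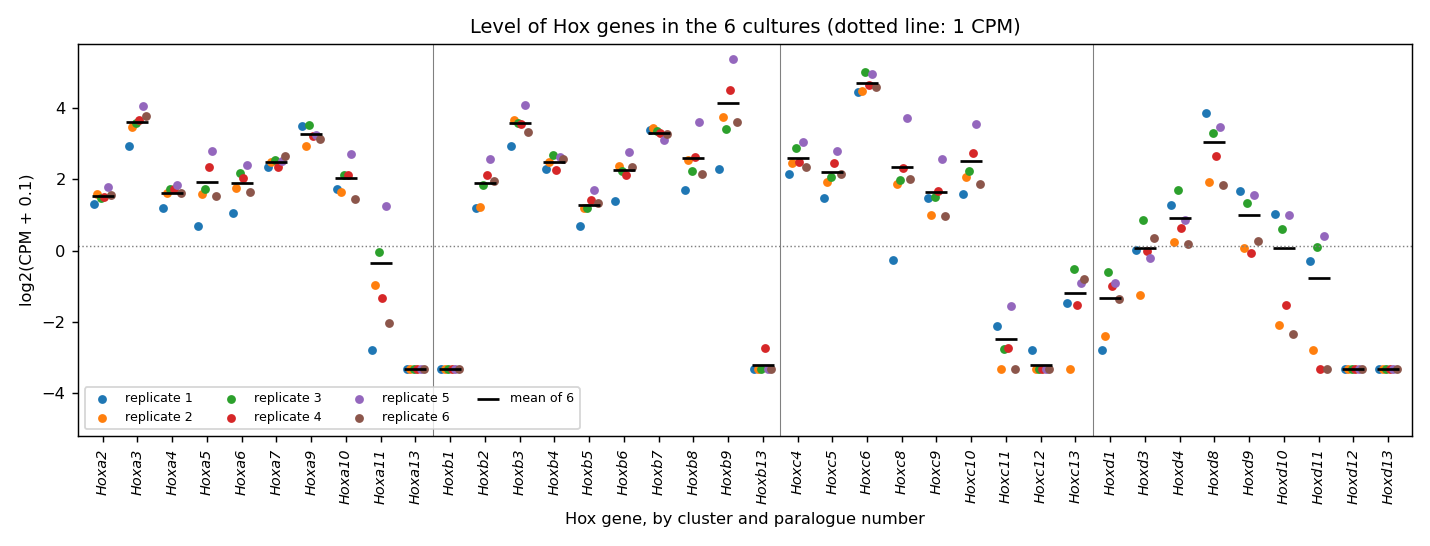
Level of Hox genes as log2(CPM + 0.1) in the 6 cultures (coloured points) with the mean of 6 (black bar), in cluster and paralogue order; the dotted line is 1 CPM. Hoxb7, Hoxa7 and Hoxa2 lie close together across cultures, whereas Hoxb9, Hoxc8, Hoxa11 and Hoxd8 to Hoxd11 are spread out.

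Of the 25 members that passed the filter on low counts, 20 varied between the replicates beyond counting noise (chi-square test, adjusted p under 0.05). The filter was edgeR's filterByExpr. Variation of this kind was the rule in the table, where 76.3% of the genes tested were called, so the members' share is near the background. Without the filter, 26 of 35 members with counts were called, against 50.2% of all genes. The 5 members not called were Hoxa2, Hoxa4, Hoxa7, Hoxb4 and Hoxb7. Set against genes of similar abundance, 0 of 25 members varied beyond the trend (edgeR quasi-dispersion test, one-sided, Benjamini-Hochberg adjusted), a test with no power in simulated libraries of this kind. Unadjusted, 3 members passed 0.05 in that test, Hoxb9, Hoxc8 and Hoxd8, where 5.39% of all genes passed. DESeq2 marked 2 of 25, Hoxb9 and Hoxc8, as having a spread above the trend, and 3.41% of all genes. These p-values concern the spread between the 6 samples. Those of the chi-square test set it against counting noise and depend on the number of counts, so they do not give its size.

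The summed Hox level was 44.1, 47.4, 57.3, 58.5, 88.4 and 47.9 CPM per kb in replicates 1 to 6. Replicate 5 stood apart at the top and replicate 1 was lowest. Of the 25 members tested, 15 were highest in replicate 5 and lowest in replicate 1, a pattern noticed in the data, which 12.9% of all genes tested showed. The 15 included Hoxb9, Hoxc8, Hoxb8, Hoxa5 and Hoxc10, and also Hoxa2 and Hoxa4, whose spread was within counting noise.

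Hoxb9, a gene of thoracic levels, had 4.79, 13.4, 10.6, 22.5, 41.4 and 12.0 CPM in replicates 1 to 6. That is 8.64-fold between the ends (chi-square test, adjusted p = 8.78e-221), and replicates 4 and 5 lay above the rest. Its share of the paralogue 9 sum was 53.5%, and it was first of its number in 5 libraries. Hoxc8, which acts at lower cervical and thoracic levels, had 0.740, 3.55, 3.88, 4.93, 13.1 and 3.92 CPM, 17.7-fold between replicates 5 and 1 (adjusted p = 1.04e-77). Replicates 2, 3, 4 and 6 were close together and both ends were far from them. Hoxc10 had 2.92, 4.10, 4.57, 6.63, 11.6 and 3.59 CPM, a 3.98-fold range (adjusted p = 3.90e-39). Hoxb8, known from blood cell progenitors besides its thoracic role, had 3.18, 5.76, 4.62, 6.03, 12.0 and 4.30 CPM, a 3.78-fold range (adjusted p = 1.06e-34). In both, replicate 5 was well above replicate 4, the next highest.

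Hoxa11, a gene of the sacral level and of the forearm and lower leg, had 1, 9, 19, 6, 48 and 3 counts and did not pass the filter. The ratio of replicate 5 to replicate 1 was 52.7, with an exact 95% interval from 9.01 to 2123 because replicate 1 held 1 count (chi-square test without the filter, adjusted p = 4.39e-21). Since these libraries were picked as highest and lowest, the stated 95% does not hold, and the interval covers counting error only. Hoxa11 overlaps by span with the opposite-strand gene Hoxa11os, which had 1, 1, 2, 3, 23 and 1 counts in replicates 1 to 6. Hoxa11os was thus also highest in replicate 5, and a sharing of reads between these genes was not tested. Hoxa5, a gene of the neck-to-thorax border, had 1.52, 2.91, 3.19, 4.98, 6.78 and 2.77 CPM, a 4.45-fold range (adjusted p = 1.83e-19). Replicates 4 and 5 were the highest.

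Markers of connective tissue had the same ends. The summed level of the 7 fibroblast markers was 661, 1183, 924, 1536, 2842 and 968 CPM per kb in replicates 1 to 6, and this order of libraries is that of Hoxb9. Summed levels of the mural, endothelial and macrophage markers also ran from a minimum in replicate 1 to a maximum in replicate 5, over 57.3 to 689.7, 2.80 to 36.2 and 4.90 to 49.7 CPM per kb. The 8 Schwann and satellite glia markers ran the other way, from 1847 in replicate 1 down to 1270 CPM per kb in replicate 5. The 10 sensory neuron markers summed to 777, 555, 977, 713, 531 and 751 CPM per kb. The part of these cell types in the Hox differences was not tested.

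Transcription factors of body wall and limb form a list set beside the Hox genes. Of 7 such genes only Tbx15, which is active in mesenchyme of the limb and body wall, was detected, Tbx5 and Pitx1, the limb-type genes, were at 0, and 3 genes could be tested. Tbx15 had 1.13, 7.95, 6.51, 14.2, 37.2 and 5.74 CPM in replicates 1 to 6. Zic1, a dorsal mesoderm and neural factor, had 0.958, 10.4, 6.69, 18.4, 47.4 and 8.18 CPM, and Tbx18, known from mural cells, 0.914, 2.37, 3.92, 4.98, 8.17 and 3.63 CPM. All 3 varied beyond counting noise, as did 76.3% of all genes tested. All 3 had their minimum in replicate 1 and maximum in replicate 5, as Hoxb9 did. The list also held genes with too few counts to test that were highest in replicate 1.

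**Figure D3:**
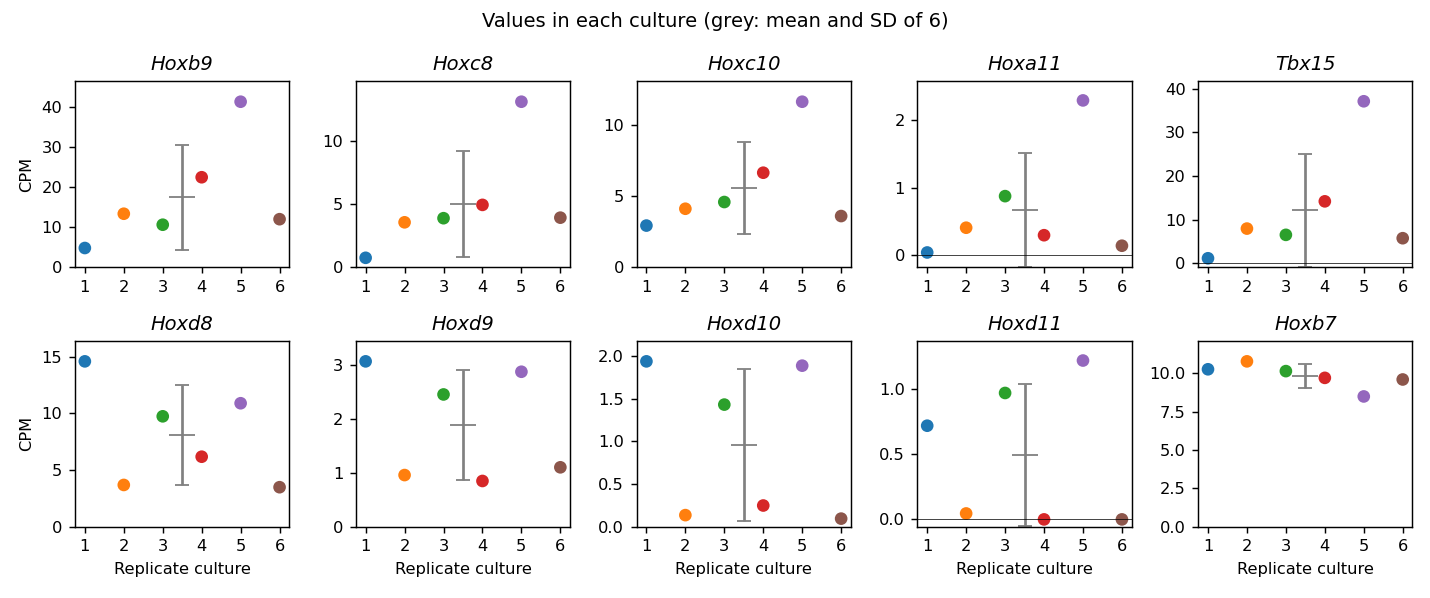
CPM in each replicate culture for 9 Hox genes and Tbx15, with the mean and SD of 6 in grey and an axis of its own for each gene. Hoxb9, Hoxc8, Hoxc10, Hoxa11 and Tbx15 peak in replicate 5; Hoxd8 to Hoxd11 have their 3 highest values in replicates 1, 3 and 5; Hoxb7 stays between 8.50 and 10.8 CPM.

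Several HoxD genes followed another order. Hoxd4, Hoxd8, Hoxd9, Hoxd10, Hoxd11 and, in HoxA, Hoxa9 had their 3 highest values in replicates 1, 3 and 5. These were 6 of the 35 members with a count. The choice of libraries was noticed in these genes, and 4.11% of all genes with a count had the same libraries on top, so the count is a description. Replicate 1, the lowest library for most of the family, was thus among the highest for these genes.

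Hoxd10, a gene of the lumbar level, had 44.5, 3, 31, 5, 39.5 and 2 counts in replicates 1 to 6, or 1.94, 0.137, 1.43, 0.249, 1.89 and 0.0956 CPM. The 3 upper libraries were several-fold above the 3 lower ones, with no overlap. The ratio of replicate 1 to replicate 6 was 20.03, with an exact 95% interval from 5.23 to 170.6 (chi-square test without the filter, adjusted p = 2.18e-16). This interval has the same limits as that of Hoxa11. Hoxd11, its neighbour, had 16.5, 1, 21, 0, 25.5 and 0 counts, so that replicate 5 was at least 8.15-fold higher than the floor of 3 counts per library (adjusted p = 2.00e-11 without the filter). The spans of Hoxd10 and Hoxd11 overlap on the same strand, and both had fractional counts in 2 libraries, so their counts are not independent of each other.

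Hoxd9 had 70.25, 21, 53, 17, 60 and 23 counts, or 3.06, 0.956, 2.45, 0.847, 2.87 and 1.10 CPM. Hoxd8, the most abundant HoxD gene, had 335, 81, 211, 124, 228 and 73 counts, or 14.6, 3.69, 9.74, 6.18, 10.9 and 3.49 CPM. Both varied beyond counting noise, by 3.61-fold and 4.18-fold between the ends (chi-square test, adjusted p = 1.10e-10 and 9.76e-53). Hoxd8 and Hoxd9 overlap no other Hox gene, and their 3 upper libraries also lay apart from the 3 lower ones. From Hoxd8 to Hoxd11, in the direction of rising numbers, the mean level was lower at each step, with 3.75, 0.895, 0.343 and 0.117 CPM per kb.

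**Figure D4:**
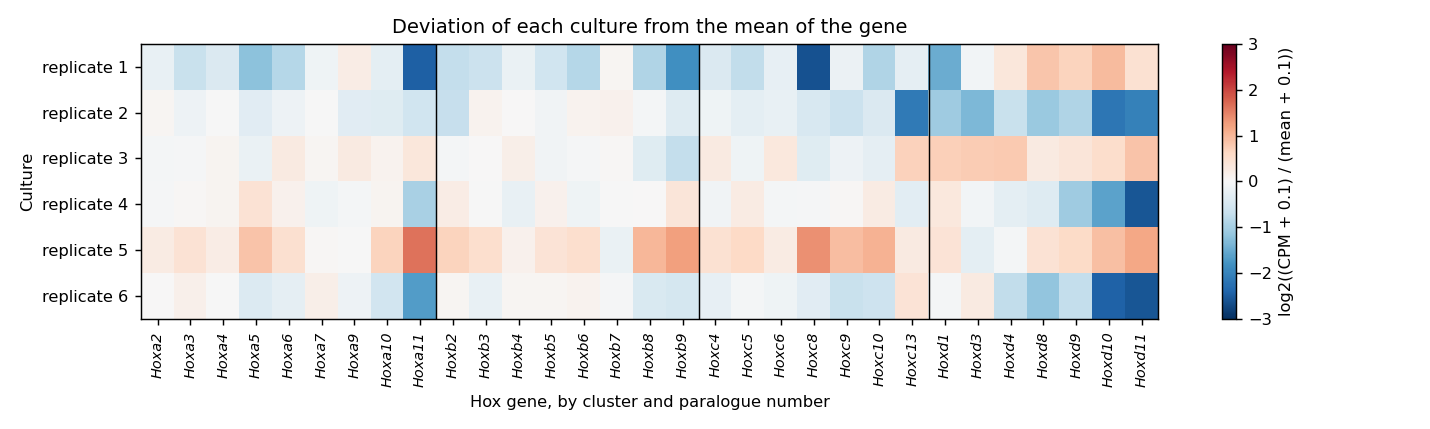
Deviation of each culture from the gene's mean, as log2((CPM + 0.1) / (mean + 0.1)), for Hox genes with at least 20 counts in sum; columns are genes in cluster and paralogue order, and red is above and blue below the mean. Replicate 1 is blue over most of HoxA, HoxB and HoxC and red from Hoxd4 to Hoxd11, while replicate 5 is red for Hoxb9, Hoxc8 and Hoxa11 and also for Hoxd8 to Hoxd11.

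The head-side HoxD genes did not share this pattern in full. Hoxd1, with 38 counts in sum, departed from it in replicate 1, its lowest library. It was highest in replicates 3, 5 and 4. Hoxd4 had 53, 24, 68, 29, 36 and 21.5 counts, with replicates 3 and 1 on top and replicate 5 near the rest. Hoxd3 had 20.75, 7, 37, 18, 16 and 24.5 counts and was highest in replicates 3 and 6 by CPM. In HoxA, Hoxa9 ran from 7.51 to 11.5 CPM with replicates 3 and 1 on top (adjusted p = 5.32e-04), but replicates 5 and 4, at 9.41 and 9.17 CPM, were nearly equal. Hoxa10 and Hoxc10, the paralogues of Hoxd10, were highest in replicate 5, and neither was high in replicate 1.

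Over all HoxD genes the share of the summed Hox level was 23.4%, 5.93%, 14.9%, 7.60%, 9.66% and 6.55% in replicates 1 to 6. Among the posterior genes numbered 9 to 13 alone, HoxD supplied 19.4%, 4.22%, 12.4%, 2.65%, 6.95% and 4.75%. HoxD was thus the most variable cluster in relative terms, with a mean share of 11.3% ± 6.73 (SD, n = 6). HoxB held 39.3% ± 5.01, HoxA 28.5% ± 2.68 and HoxC 20.8% ± 2.79. Of the 10 sensory neuron markers, 6 were lowest in replicate 5 and 4 (Prph, Calca, Tac1 and Th) in replicate 2, while 9 were highest in replicate 3 and Th in replicate 1. Their part in the HoxD differences was not tested.

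**Figure D5:**
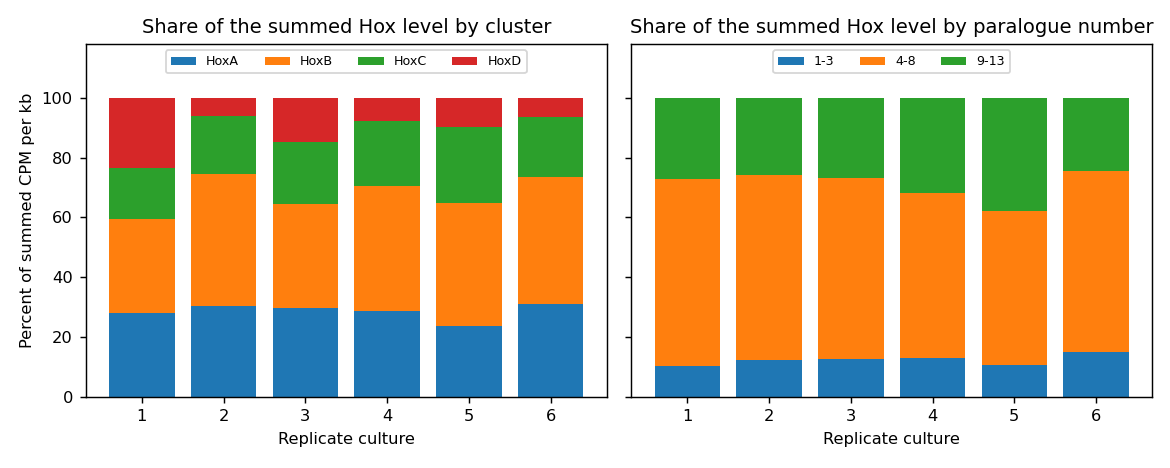
Share of the summed Hox level (CPM per kb) in each replicate culture, stacked by cluster (left) and by paralogue number (right). HoxD takes 23.4% in replicate 1 and 5.93% in replicate 2, and genes numbered 9 to 13 take 37.9% in replicate 5 and 24.5% in replicate 6.

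Because Hoxd8 to Hoxd11 were high in the same libraries, the sequences around their start sites are shown, each from 250 bases before to 50 bases after the start of a RefSeq transcript (GRCm38.p6, plus strand, chromosome 2), 5′ to 3′. Hoxd11 has a second, upstream start in the table, at chr2:74679308-74679607, which is not printed. Hoxa7 (minus strand, chromosome 6) is added as a steady gene. Capitals mark 4 motifs on either strand: TATAAA (the TATA box), CCAAT (bound by NF-Y), GGGCGG (the GC box bound by Sp1) and TGATTNAT (a joint site of Hox and Pbx proteins). No motif occurrences overlapped in the printed sequences.
Hoxd8 promoter, chr2:74704365-74704664: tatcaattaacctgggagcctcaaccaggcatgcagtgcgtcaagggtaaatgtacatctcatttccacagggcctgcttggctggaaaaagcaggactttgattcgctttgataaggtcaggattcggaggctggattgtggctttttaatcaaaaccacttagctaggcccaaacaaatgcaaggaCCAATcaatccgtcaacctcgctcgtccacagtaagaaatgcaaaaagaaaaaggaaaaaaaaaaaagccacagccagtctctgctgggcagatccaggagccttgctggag
Hoxd9 promoter, chr2:74697513-74697812: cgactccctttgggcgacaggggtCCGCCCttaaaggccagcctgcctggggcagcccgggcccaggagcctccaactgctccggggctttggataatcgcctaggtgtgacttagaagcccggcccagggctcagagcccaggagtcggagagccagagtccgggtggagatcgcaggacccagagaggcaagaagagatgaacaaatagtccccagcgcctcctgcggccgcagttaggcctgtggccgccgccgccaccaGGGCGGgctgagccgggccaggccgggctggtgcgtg
Hoxd10 promoter, chr2:74691641-74691940: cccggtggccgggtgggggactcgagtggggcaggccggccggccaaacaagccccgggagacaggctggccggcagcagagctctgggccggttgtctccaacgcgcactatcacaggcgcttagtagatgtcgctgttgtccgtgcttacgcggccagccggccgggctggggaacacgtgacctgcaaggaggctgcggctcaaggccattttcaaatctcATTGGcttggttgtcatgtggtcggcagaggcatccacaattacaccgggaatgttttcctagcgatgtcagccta
Hoxd11 promoter, chr2:74682073-74682372: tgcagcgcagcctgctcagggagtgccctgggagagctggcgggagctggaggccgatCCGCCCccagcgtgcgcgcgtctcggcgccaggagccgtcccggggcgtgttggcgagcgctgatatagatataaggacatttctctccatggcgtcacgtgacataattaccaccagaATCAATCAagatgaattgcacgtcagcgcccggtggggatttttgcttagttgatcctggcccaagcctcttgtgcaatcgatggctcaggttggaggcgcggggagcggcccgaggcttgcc
Hoxa7 promoter, chr6:52218524-52218823: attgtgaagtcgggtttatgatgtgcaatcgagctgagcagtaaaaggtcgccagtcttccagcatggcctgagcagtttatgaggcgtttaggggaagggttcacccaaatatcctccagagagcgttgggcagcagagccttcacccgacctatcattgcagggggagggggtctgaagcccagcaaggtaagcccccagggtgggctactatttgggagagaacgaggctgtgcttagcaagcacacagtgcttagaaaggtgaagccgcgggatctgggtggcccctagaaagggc

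The 4 HoxD promoters had no motif in common. Hoxd8 and Hoxd10 each held 1 CCAAT, Hoxd9 held 2 copies of GGGCGG, Hoxd11 held 1 GGGCGG and 1 TGATTNAT, and Hoxa7 held none of the 4 motifs in this window. Among 32851 RefSeq promoters of the same length, 37.4% held CCAAT, 35.7% GGGCGG, 13.6% TATAAA and 3.22% TGATTNAT. The promoters differed in CpG dinucleotides, the sites of DNA methylation: 6 in Hoxd8, 20 in Hoxd9, 22 in Hoxd10, 25 in Hoxd11 and 9 in Hoxa7, where the median of all promoters was 7. Promoters were found in the table for 22 of the 39 members, as 24 entries, and these held 4 to 45 CpG. The 45 belonged to Hoxa13 and 37 to Hoxd13, both genes without a count. Hoxb1 and Hoxd12, also without a count, had 10 and 13, against a median of 14.5 over the 24 entries. A motif match is a description of letters, not evidence of binding.

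Each cluster also holds microRNA genes. The mir-10 and mir-196 families lie among the Hox genes and are known to target Hox transcripts; libraries of poly-A RNA count their precursors poorly. The mature sequences are shown to place them, with the seed, bases 2 to 8, in capitals (RefSeq, GRCm38.p6).
miR-10a-5p, chr11:96317186-96317208, within the span of Hoxb3: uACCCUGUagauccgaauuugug
miR-10b-5p, chr2:74726074-74726096, within the spans of Hoxd3 and Hoxd4: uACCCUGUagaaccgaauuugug
miR-196a-5p, chr11:96265187-96265208 and chr15:102973365-102973386: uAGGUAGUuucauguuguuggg
miR-196b-5p, chr6:52230129-52230150, between Hoxa9 and Hoxa10: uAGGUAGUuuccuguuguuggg

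Members of a family share the seed. From base 1 at the 5′ end, miR-10a-5p and miR-10b-5p differ by U12A, and miR-196a-5p and miR-196b-5p by A12C. The 6 microRNA genes had at most 18 counts in sum over the 6 libraries (Mir196a-1), Mir196a-2 and Mir615 had none, and no level is read from them.

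Beyond the 39 genes and the microRNAs, the clusters held 24 long noncoding RNA genes and 1 pseudogene. Together with the 6 microRNA genes they were 31 other genes, of which 4 had no count and 3 were detected. Mira, a noncoding RNA on the Hox strand between Hoxa6 and Hoxa7 (chr6:52214491-52215288), had 9.36, 12.1, 10.3, 10.2, 10.7 and 9.08 CPM in replicates 1 to 6, a mean level of 12.9 CPM per kb. That mean was above the level of every Hox gene, and its spread was narrow though past the threshold (chi-square test, adjusted p = 0.0260). Gm11539, a pseudogene in HoxB with fractional counts, had 4.56 ± 0.962 CPM and Hoxb3os, antisense to Hoxb3 and Hoxb2, had 2.03 ± 0.510 CPM (SD, n = 6). In HoxD, Gm38462, antisense to Hoxd8 and Hoxd3, had 32, 7, 35, 8.5, 8 and 4 counts, high in replicates 1 and 3 but not in replicate 5.

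The genes next to the clusters ranged from no count to well expressed. Evx1 and Evx2, homeobox genes beyond the posterior ends of HoxA and HoxD, had no count in any library; Evx2 lies 6.71 kb from the last HoxD gene. On the other sides Skap2, next to HoxA, had 35.3 ± 3.82 CPM and Mtx2, next to HoxD, 29.7 ± 1.79 CPM (SD, n = 6). Both neighbours of HoxC were expressed, Calcoco1 at 100.6 ± 10.4 and Smug1 at 19.1 ± 1.45 CPM, and both neighbours of HoxB were nearly silent, Ttll6 at 0.152 and Skap1 at 0.0396 CPM.

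The partners and regulators of Hox genes were mostly present. Of 9 DNA-binding cofactors, the TALE homeodomain proteins that bind DNA with Hox proteins, 8 were detected. Levels ran from Pbx2 at 13.3 to Meis2 at 0.262 CPM per kb. Of the 9, 8 varied beyond counting noise, against 76.3% of all genes tested. Pknox2 had 16.02, 20.9, 24.4, 36.5, 51.7 and 18.5 CPM in replicates 1 to 6. It had the ends of Hoxb9, lowest in replicate 1 and highest in replicate 5. Meis1 was steady, at 7.88 ± 0.730 CPM (chi-square test, adjusted p = 0.420).

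Chromatin factors that keep Hox genes off or on were detected throughout. All 15 Polycomb genes, which maintain silent Hox genes, passed 1 CPM in every library, from Phc2 at 26.6 to Cbx8 at 1.31 CPM per kb, and 12 of 15 varied beyond counting noise. All 7 genes of the activator list, among them Kmt2a, the trithorax methyltransferase, were detected and all 7 were called. Their levels ran from Men1 at 19.1 to Kdm6a at 6.55 CPM per kb. Among all genes tested 76.3% were called, so such calls do not set these lists apart. The 3 Cdx genes, which set posterior Hox genes in the embryo, had no count in any library.

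Retinoic acid sets head-side Hox genes in the embryo. Of 8 receptor and enzyme genes 6 were detected. All 7 that could be tested were called, against 76.3% of all genes tested. The receptor Rarg was highest at 31.1 CPM per kb, and Cyp26a1, which breaks retinoic acid down, lowest at 0.260. Aldh1a2, the enzyme that makes retinoic acid in the trunk, had 6.27, 5.24, 12.1, 13.2, 33.6 and 3.06 CPM in replicates 1 to 6, highest in replicate 5 like Hoxb9 but lowest in replicate 6.

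Factors of the head, where Hox genes are off, were nearly absent. Of 10 such genes 0 reached 1 CPM in every library, and Otx2, Emx1, Six3 and En2 had no count. The summed level of the 10 was 0.197 to 1.36 CPM per kb.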

How the data were processed

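Poly-A RNA of 6 cultures was sequenced from stranded libraries. The deposited table holds estimated counts per gene that the authors describe as raw; 13.4% to 14.7% of its values per library were not whole. The submitters' processing notes name cutadapt 2.5, STAR 2.7.2b, featureCounts 1.6.4 and GRCm38.p6, with no strand setting. The table had 0 further columns of samples. All 39 Hox start positions were identical to RefSeq's GRCm38.p6 table.

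Counts were divided by library totals (CPM) and by combined exon length. For tests they were rounded, filtered with edgeR 4.0.16 filterByExpr (14998 genes) and scaled by TMM (factors 0.976 to 1.02). A chi-square test compared the 6 counts with scaled library sizes, and an intercept-only quasi-likelihood fit compared each gene's spread with the trend, both adjusted by Benjamini-Hochberg. On simulated counts the first recovered 200 of 200 genes changed 3-fold in 1 library among 14998, with 9 other calls; the second recovered 0 of 200 at 8-fold among 14996 when spread varied between genes as estimated here. DESeq2 1.42.0 was an alternative, with the others in the closing section. A gene was named where it is a Hox gene, a companion list's highest, lowest or absent gene, or as shown; Pknox2, Meis1, Aldh1a2, Tbx15, Zic1, Tbx18 and Gm38462 were chosen with their values seen. Members and lists were chosen with earlier results of these data known. Values of 1 Hox gene and 2 companion genes are not reported here, although they count in totals, shares and lists.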

Additional observations from a re-analysis of the deposited data

Results flagged for a closer look

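In 43 measures compared over the 6 replicates (CPM of the 35 Hox genes with a count, the 7 shares by cluster and paralogue class, and the summed level), in 7 the highest or lowest library lay farther from the others than Dixon's 95% critical value allows, where the gap to the nearest library is divided by the range; chance gives about 1 in 20 groups, here 2.15. Hoxb8 (0.677), Hoxc8 (0.661), Hoxc9 (0.689) and Hoxa11 (0.629) were each flagged by a high value in replicate 5, as was the summed level of the 39 genes in CPM per kb (0.676). Hoxc9 had 2.66, 1.91, 2.72, 3.11, 5.88 and 1.86 CPM in replicates 1 to 6. Hoxb13 (1.0) and Hoxc12 (1.0) rest on a single count in 1 library each, in replicate 4 and replicate 1, and carry no information on the level. With a single count the value is 1.0 by construction. The rate of 1 in 20 holds for independent, normally distributed values. Low counts and measures sharing genes and libraries are neither, so nothing is concluded from 7 against 2.15. Sums outside the 43 were also past the critical value, again through replicate 5: the summed level of genes numbered 9 to 13 (0.685), that of HoxC (0.641) and the summed CPM of the 39 genes (0.627).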

How the results depend on the processing

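The number of detected Hox genes stayed between 23 and 27 under every setting tried: 27 with 1 CPM in at least 3 libraries or 0.1 CPM in all, 26 with 10 counts in all, 23 with TMM-scaled sizes, and 23 to 25 when 1 replicate was left out. The 20 genes called by the chi-square test were 20 with DESeq2 size factors or library totals, 26 without the low-count filter and 18 to 21 without 1 replicate. Among genes with whole counts alone, 9 members could be tested and 5 were called, against 81.0% of all genes. With replicates 1 and 5 both left out, a setting chosen after seeing the data, 26 were tested and 11 called, against 56.5% of all genes, with 4 libraries in place of 6. The spread beyond the trend gave 0 calls in every edgeR setting and 2 as DESeq2 dispersion outliers. Without division by length the mean HoxC share was 29.1% and that of genes numbered 1 to 3 was 19.3%, by construction, since Hoxc6, Hoxa3 and Hoxb3 have long exons. Without Hoxb9, the gene of the highest level, HoxA held 31.8%, HoxB 32.3%, genes numbered 4 to 8 65.5% and genes numbered 9 to 13 20.8%. The HoxD share was 8.92% without replicate 1 and at most 12.4% without any other. The CPM of single genes moved by less than their SD with TMM or DESeq2 scaling. No paired analysis was possible because all 6 samples form 1 group. Depth limits genes such as Hoxd10, Hoxd11 and Hoxa11, where libraries hold 0 to 5 counts at the low end.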

Other observations

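To describe the separation of libraries at Hoxd10 and Hoxd11, the gap between the third and the fourth highest library was taken for every gene. The gap is a difference of log2(CPM + 0.1) and does not fix which libraries are on top. It was computed for the 16233 genes with at least 0.5 CPM in the third library, and was chosen after the values were seen, so it is a description with no test. Genes that are high in only 3 libraries can enter on those alone, as Hoxd11 and Hoxd10 did. The entry rule therefore favours wide gaps, and the ranks do not show how unusual these 2 genes are. For Hoxd11 the fourth highest library holds 1 count, under the floor of 3 counts. The size of its gap, first in the ranking, is set by the offset of 0.1 and is not read. Hoxd10, with 5 counts in the fourth highest library, was at rank 6 with a gap of 2.13, Hoxd9 at rank 146 (1.09) and Hoxd8 at rank 405 (0.65). The median gap was 0.06. Hoxd10 and Hoxd11 overlap by span and are not independent. Of the other genes with the 10 widest gaps, Klhl6, Themis2, Dio3, Cd37, Alox5ap, Itgb2 and Arhgap9 had replicates 3, 4 and 5 on top, and Cilp had replicates 2, 4 and 5. Hoxd11 and Hoxd10 had replicates 1, 3 and 5 on top, the libraries noticed in these genes beforehand.

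Within 1 culture, Hox genes of the same number lay at opposite ends of their own range for number 8. In replicate 1, Hoxd8 was at its highest (14.6 CPM) while Hoxc8 and Hoxb8 were at their lowest (0.740 and 3.18 CPM). Hoxd10 was also at its highest there (1.94 CPM), Hoxc10 at its lowest (2.92 CPM) and Hoxa10 at 3.22 CPM within a range of 2.63 to 6.40 CPM. In replicate 5, however, Hoxd10 was nearly as high (1.89 CPM), and there Hoxc10 and Hoxa10 were at their highest (11.6 and 6.40 CPM).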
